A study of Mus musculus with 6 samples.

Results

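Matricellular proteins are secreted glycoproteins of the extracellular matrix that tune how cells attach, migrate and respond to growth factors, rather than bearing load as collagens do. The genes described here are 10 members of this group and the adhesive glycoproteins that work beside them: the tenascins Tnc, Tnxb and Tnn, fibronectin (Fn1), the thrombospondins Thbs1, Thbs2, Thbs3 and Thbs4, Sparc (osteonectin) and Postn (periostin). They were chosen by name, as families of matrix glycoproteins, with earlier results of these data known. All 10 were found among the 41126 genes of the deposited all-gene table.

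The values come from RNA-seq, a count of sequenced cDNA fragments for each gene, of primary dermal fibroblast cultures from mice of a mixed CD1, C57Bl6 background at postnatal day 4. The Control group is 3 cultures labelled AdGFP; +/+ and the GOF (gain of function) group is 3 cultures labelled AdCre; Ctnnb1{delta}ex3/+. In GOF cells, Cre delivered by an adenovirus removes an exon of Ctnnb1, the gene for β-catenin, and the shortened protein escapes degradation and keeps the Wnt pathway switched on. The comparison asks which genes follow the stabilization of β-catenin. The +/+ in the Control labels stands beside methods of the study in which both groups carry the same allele and the controls receive a virus with GFP. The treatment label names the Cre virus, at 366 to 500 MOI (infectious virus per cell) for 6 h, for every culture. These 6 h are the time of infection, and the study took RNA for sequencing days after it. By the methods of the study both groups received an adenovirus, at 366 to 500 MOI for Cre and 366 for GFP. Effects of Cre in place of GFP, of this dose and of β-catenin cannot be told apart. The 6 cultures came from 4 animals: Control replicate 0 and GOF replicate 2 shared an animal, and so did Control replicate 2 and GOF replicate 0. In bulk cultures such as these, fewer cells of a type and less RNA per cell cannot be told apart.

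Tenascins, thrombospondins and periostin bind collagens, fibronectin and cell surface integrins, and they are most abundant in developing and healing skin. Fibronectin is assembled by fibroblasts into fibrils that serve as a scaffold for collagen, and Sparc is a collagen-binding protein of the same cells. Integrins are the main receptors through which fibroblasts hold these proteins, and syndecans, CD36 and CD47 are others.

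The genes lie apart in the genome. On GRCm38 (mm10), with GENCODE M21 gene models, Fn1 is at chr1:71585520-71653200 and Tnn at chr1:160085029-160153580, both on the minus strand. Thbs1 is at chr2:118111876-118127133, Postn at chr3:54361109-54391037 and Thbs3 at chr3:89215180-89226837, all on the plus strand. Tnc is at chr4:63959785-64047015, Sparc at chr11:55394500-55423183, Thbs4 at chr13:92751590-92794818 and Thbs2 at chr17:14665500-14694235, all on the minus strand, and Tnxb is at chr17:34670535-34719815 on the plus strand.

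Promoters are shown for 3 genes that the values below set apart: Thbs3, lower in GOF by both thresholds, Tnxb, at the edge of the fold threshold, and Sparc, the most abundant of the members with an estimate and close to level between the groups. Each window runs from 250 bases before to 50 bases after an annotated start, from RefSeq on GRCm38.p6, written 5′ to 3′ on the strand of the gene. Capitals mark CTTTGTT, a spelling of the TCF/LEF motif through which β-catenin acts, in Thbs3, and TGAGTCA, an AP-1 motif, in Tnxb. The Sparc window holds neither motif and has no capitals. It lies inside the Sparc gene model given above, so its annotated start is not the 5′ end of that model. The windows are chr3:89214930-89215229 (plus strand), chr17:34670285-34670584 (plus strand) and chr11:55420031-55420330 (minus strand).
Thbs3: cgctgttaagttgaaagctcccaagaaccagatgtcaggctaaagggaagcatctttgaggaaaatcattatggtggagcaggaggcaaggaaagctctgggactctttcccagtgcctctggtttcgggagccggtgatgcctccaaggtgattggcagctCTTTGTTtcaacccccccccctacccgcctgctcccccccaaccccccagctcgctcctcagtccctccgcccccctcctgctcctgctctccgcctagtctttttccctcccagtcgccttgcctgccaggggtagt
Tnxb: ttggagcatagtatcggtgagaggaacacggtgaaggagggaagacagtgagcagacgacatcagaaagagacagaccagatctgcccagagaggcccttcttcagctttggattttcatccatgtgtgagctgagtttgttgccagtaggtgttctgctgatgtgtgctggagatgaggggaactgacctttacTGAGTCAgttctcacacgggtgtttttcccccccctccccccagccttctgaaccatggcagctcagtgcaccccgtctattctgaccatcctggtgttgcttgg
Sparc: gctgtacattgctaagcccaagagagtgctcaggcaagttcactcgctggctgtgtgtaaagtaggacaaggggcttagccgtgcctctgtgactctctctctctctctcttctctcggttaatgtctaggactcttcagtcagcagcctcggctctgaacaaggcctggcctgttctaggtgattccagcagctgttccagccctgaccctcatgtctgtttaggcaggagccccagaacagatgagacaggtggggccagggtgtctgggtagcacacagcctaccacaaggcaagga

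The table of promoters held 10 windows for 8 of the members (Fn1 and Thbs1 were not among them). The motifs were chosen after the values were known, and they were searched on both strands. The TCF/LEF motif, CTTTGNN where each N is A or T, was found in 1 member, Thbs3, with the first base 88 bases before the start, and in 16.9% of all 32851 windows. The AP-1 motif, TGANTCA where N is C or G, was found in 1 member, Tnxb, with the first base 55 bases before the start, and in 5.2% of all windows. The TATA box letters TATAAA stood in windows of 3 members (Postn, Tnc and Thbs2) and in 13.6% of all windows. In Postn they lay 26 bases before the start, and in Thbs2 on the opposite strand, 126 bases before it. The GC box GGGCGG was present in 3 members (Thbs3, Tnc and Thbs4) against 35.7% of all windows, the SMAD letters CAGACA in 4 (Tnc, Sparc, Thbs2 and Thbs4) against 21%, and the E-box CACCTG in 2 (Sparc and Thbs4) against 20.2%. No match overlapped that of another motif. These are matches of letters only, and binding was not measured.

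The libraries held 35980831 to 42834467 fragments, and Axin2, a feedback target of β-catenin that checks the labels, was at 0.144, 0.136 and 0.177 FPKM (fragments per kilobase, scaled to the depth of the library) in the Control libraries and at 19.2, 14.4 and 18.7 in the GOF libraries (log2 fold change 6.98 ± 0.26 SE, edgeR adjusted p = 4.947e-05). Ctnnb1 itself was at 254 to 285 FPKM in Control and 246 to 297 in GOF, but its value covers the whole gene and does not read the removed exon. Of the fibroblast markers, Vim was at 719 to 1506 FPKM and Col1a2 at 300.1 to 1061, whereas Lum and Pdgfra were lowest in GOF replicate 2, at 11.3 and 15.2 FPKM against 109.5 to 173 and 31.3 to 76.1 in Control. Of the 11 tested 3 were called, all lower in GOF (Col1a2, Dcn and Fbn1). Markers of other cells also differed. Over all genes tested, 6.69% were called higher and 5.64% lower. Of 4 tested keratinocyte markers 2 were higher in GOF (Dsp and Perp), and the summed FPKM of the list was 2.24 to 3.57 in Control and 12.4 to 39.7 in GOF, while Krt14, which defines basal keratinocytes, was at 0 in 5 of the 6 libraries. Of 4 tested adipocyte markers 3 were lower in GOF (summed FPKM 18.8 to 18.9 against 4.84 to 8.61). Of 4 tested muscle markers 1 was higher (Acta1), and the summed FPKM of the muscle list was 24.5 to 29.7 against 139 to 173. Acta1 alone was at 22.7 to 26.4 FPKM in Control and 137 to 171 in GOF, so that sum is mostly this gene. Pax7, which defines muscle stem cells, was at 0 in all. Endothelial markers gave 2 higher and 1 lower of 7 tested, macrophage markers 1 higher of 8, pericyte and smooth muscle markers 1 higher of 9, and Schwann cell and melanocyte markers 1 lower of 8. The part of these cells in the results below was not tested.

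Of the 10 genes, 2 were lower in GOF fibroblasts by both thresholds, which are an adjusted p below 0.05 and more than 2-fold: fibronectin, 2.52-fold lower, and Thbs3, 2.35-fold lower. None was higher by both (0 of 7 tested by edgeR, 0 by DESeq2, and 0 at an unadjusted p under 0.05). Tnxb passed the adjusted p at 1.995-fold lower, just short of the fold threshold. The abundant tenascin Tnc, the angiogenesis inhibitor Thbs2 and Sparc were not called, and their Control and GOF libraries overlapped. Over all 15462 genes tested, 5.64% were lower and 6.69% higher by both thresholds, and the 7 members had a median log2 fold change of -0.56 against -0.02 over all genes. Of the other 3 members, Thbs4 was below the filter on low counts, while Thbs1 and Postn had no usable value in 6 and 3 libraries.

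**Figure D1:**
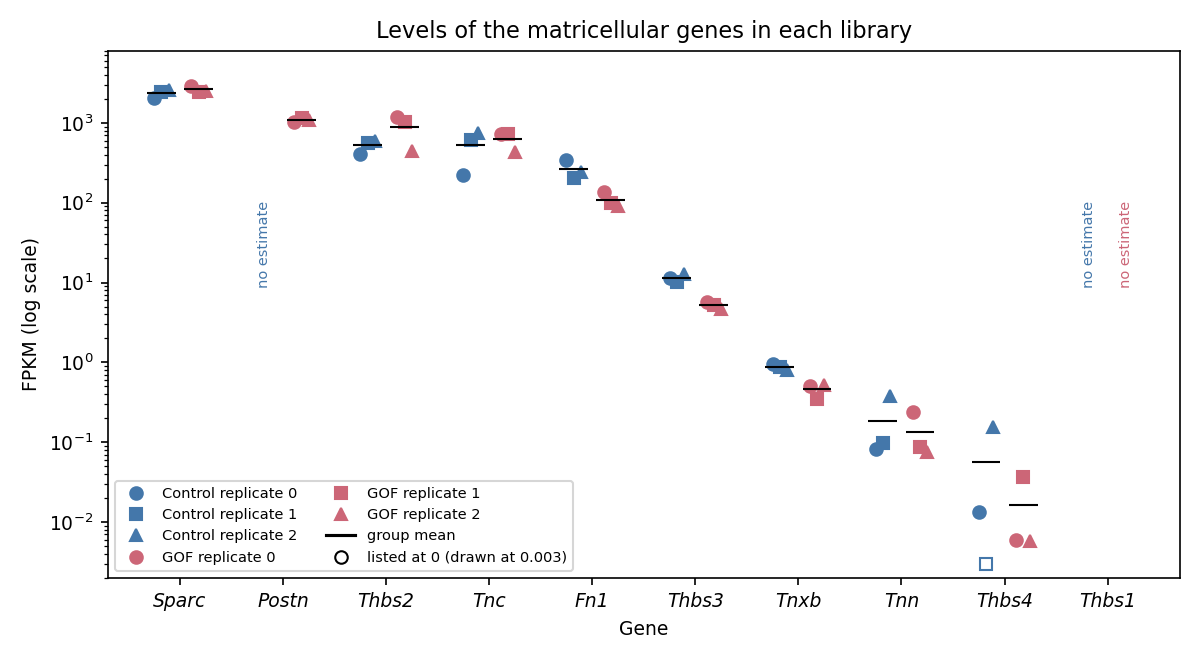
Levels of the 10 genes in FPKM on a log scale (y axis) by gene (x axis), with 1 point per library (blue Control, red GOF; shapes give the replicate) and a bar at each group mean. Sparc was the highest of the genes with an estimate in both groups, Thbs4 stood lowest with 1 Control library listed at 0 (open symbol), and Thbs1 in both groups and Postn in Control had no estimate.

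FPKM is scaled by transcript length, so it allows levels to be compared between genes. Among the 8 members with an estimate in Control, which leaves out Thbs1 and Postn, Sparc stood highest, followed by Tnc and Thbs2, whose ranges overlapped, then Fn1, Thbs3, Tnxb, Tnn and Thbs4. Fn1 lay above Tnc in Control replicate 0 alone, at 338.5 against 221.6 FPKM. In GOF cultures the order, without Thbs1, was Sparc, Postn, Thbs2, Tnc, Fn1, Thbs3, Tnxb, Tnn and Thbs4, and the range of Thbs2 overlapped those of both Postn and Tnc. Sparc was the 18th most abundant of the tested genes by mean FPKM in Control and the 17th in GOF, Tnc the 173rd and 141st, and Thbs2 the 174th and 84th. Fn1 was the 298th in Control and the 773rd in GOF.

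Tenascins are oligomeric glycoproteins, of which Tnc weakens the hold of cells on fibronectin. Tnc, the tenascin of embryonic and wounded skin, was at 221.6, 605.7 and 753.4 FPKM in Control replicates 0, 1 and 2 and at 731.1, 718.7 and 431.0 in GOF replicates 0, 1 and 2. Control replicate 0 was the lowest of all 6 and GOF replicate 2 the lowest of its group, and the groups overlapped. The Control mean was 527 ± 275 FPKM and the GOF mean 627 ± 170 (SD, n = 3 each), with a log2 fold change of 0.22 ± 0.44 SE (edgeR adjusted p = 0.766). Without Control replicate 0 the fitted log2 fold change was -0.16, so its sign rests on that library. 8030451A03Rik, a non-coding gene on the other strand, shares 176 exon bases with Tnc and had 50 to 220 fragments a library beside 72919 to 290965.

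Tnxb, the tenascin of loose connective tissue whose loss causes a form of Ehlers-Danlos syndrome, was far less abundant. It was at 0.946, 0.879 and 0.794 FPKM in Control (450, 540 and 426 fragments) and at 0.507, 0.349 and 0.524 in GOF (265, 163 and 312 fragments). Every GOF library lay below every Control library, which held for 19.2% of all genes tested and for 3 of the 7 members. The log2 fold change was -0.997 ± 0.24 SE with an edgeR adjusted p of 0.0239. By the adjusted p alone 10.2% of all genes tested were lower, against 3 of the 7 members, Tnxb, Fn1 and Thbs3. The call of Tnxb depended on the setting: the log2 fold change was -1.04 with library totals, -1.05 with upper-quartile scaling, -1.10 without Control replicate 2 and -1.19 without GOF replicate 2, each past both thresholds. The adjusted p rose to 0.0818 when Control replicate 1 was left out, to 0.076 when GOF replicate 0 was, and to 0.0712 under a block for the replicate number.

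Tnn (tenascin-N, also called tenascin-W), a tenascin of bone and tumour stroma, was close to the limit of detection. It was at 0.0821, 0.0967 and 0.380 FPKM in Control (23, 34 and 124 fragments) and at 0.238, 0.086 and 0.0758 in GOF (76, 23 and 25 fragments). Control replicate 2 and GOF replicate 0, which came from the same animal, were the highest of their groups, and the groups overlapped. The log2 fold change was -0.56 ± 0.69 SE (edgeR adjusted p = 0.606), and it was 0.45 without Control replicate 2.

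Fn1 encodes fibronectin, the adhesive glycoprotein that tenascins and thrombospondins bind. It was at 338.5, 206.6 and 240.7 FPKM in Control and at 137, 99.7 and 90.2 in GOF. All 3 GOF libraries lay below all 3 Control libraries. The Control mean was 262 ± 68.4 FPKM and the GOF mean 109 ± 24.8 (SD, n = 3 each), and Fn1 fell by 1.33 ± 0.29 SE on the log2 scale (edgeR adjusted p = 0.0176). Between the cultures of 1 animal the log2 difference of FPKM was -0.81 (Control replicate 2 and GOF replicate 0) and -1.91 (Control replicate 0 and GOF replicate 2). Leaving out GOF replicate 1 gave a log2 fold change of -1.21 and an adjusted p of 0.0658. Apol7d, a gene on the other strand, shares 292 exon bases with Fn1, and the sources do not state whether the counting used the strand of this stranded library. Apol7d was at 69.3, 37.0 and 31.9 FPKM in Control and 13.5, 5.87 and 14.7 in GOF, or 77 to 963 fragments a library beside 26583 to 96617 for Fn1. It was itself lower in GOF by both thresholds (log2 fold change -2.01 ± 0.475 SE, edgeR adjusted p = 0.0229). The part of the shared bases in either value was not tested.

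**Figure D2:**
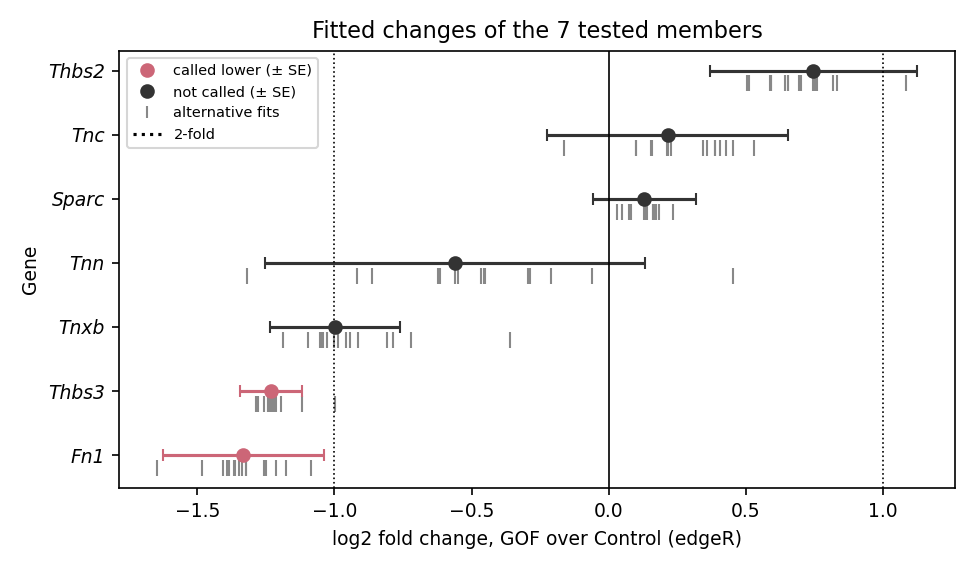
Log2 fold change of GOF over Control (x axis) for the 7 tested genes (y axis), with the edgeR estimate ± SE (point and bar; red for the 2 called lower) and the alternative fits as small ticks. Fn1 and Thbs3 lie past the dotted 2-fold line at the left, Tnxb on it, and the ticks of Tnc and Tnn fall on both sides of 0.

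Thbs1 and Thbs2 form the trimeric thrombospondins, which inhibit the growth of blood vessels, and Thbs1 also activates latent TGF-β. For Thbs1 the deposited table carries the mark HIDATA, meaning too many fragments for the program to process, in all 6 libraries, and lists 0 there. These are missing values and not an absence of the transcript, and no level of Thbs1 can be given. Gm29233, a long non-coding RNA gene on the other strand that shares 208 exon bases with it, bore the same mark in all 6.

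Thbs2, the thrombospondin of fibroblasts in growing and healing skin, was at 412, 560.5 and 593 FPKM in Control and at 1174, 1038 and 438.5 in GOF. GOF replicates 0 and 1 were above every Control library, whereas GOF replicate 2 lay among them. The Control mean was 522 ± 96.4 FPKM and the GOF mean 884 ± 391.5 (SD, n = 3 each), with a log2 fold change of 0.75 ± 0.38 SE (edgeR adjusted p = 0.205). Leaving out GOF replicate 2 gave a log2 fold change of 1.08 with an adjusted p of 0.0187, so that Thbs2 was then called higher. Control replicate 0, from the same animal as GOF replicate 2, was also the lowest of its group, and the log2 difference between these cultures was 0.09, against 0.98 in the other animal. These same cultures had the lowest Tnc of their groups and the lowest summed FPKM of macrophage markers, at 13.3 and 10.4 against 18.1 to 30.7 in the others. They also had the highest summed FPKM of pericyte and smooth muscle markers, at 2335 and 3660 against 1672 to 2273 in the others. Of the fibroblast markers, Lum and Pdgfra were likewise lowest of their groups in these cultures. The part of these differences in the Thbs2 and Tnc values was not tested.

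Thbs3 and Thbs4 belong to the pentameric thrombospondins, which bind calcium and are best known from cartilage, tendon and muscle. Thbs3 was at 11.5, 10.1 and 12.6 FPKM in Control (1550, 1687 and 1884 fragments) and at 5.69, 5.26 and 4.61 in GOF (779, 708 and 770 fragments). The libraries of each group lay close together and the groups did not overlap. The Control mean was 11.4 ± 1.29 FPKM and the GOF mean 5.19 ± 0.542 (SD, n = 3 each), and Thbs3 fell by 1.23 ± 0.11 SE on the log2 scale, with the smallest adjusted p of the members (edgeR adjusted p = 6.075e-04). The log2 difference within an animal was -1.15 and -1.31. Its 16 alternatives gave log2 fold changes from -1.28 to -0.999, and in the one at -0.999, limma on log2(FPKM + 1), the fold fell just short of 2. Mtx1, on the other strand, shares 318 exon bases with Thbs3 and was at 41.1 to 58.8 FPKM in Control and 36.5 to 53.5 in GOF (log2 fold change -0.10 ± 0.19 SE, edgeR adjusted p = 0.746).

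Thbs4 was barely detected, with 2, 0 and 5 fragments in Control and 1, 6 and 1 in GOF, and it was not tested. The ratio of Thbs2 to Thbs3 in FPKM was 35.98, 55.8 and 47.0 in Control and 206.5, 197 and 95.1 in GOF. The ratios of the groups did not overlap, but neither did Thbs3 alone, so the ratio adds no separate result for Thbs2. In GOF replicate 2, Thbs2 was at 438.5 FPKM, within the Control range of 412 to 593. Thbs3 was there at 4.61, below every Control library. For Tnc over Tnxb the ratio was 234, 689 and 949 in Control and 1444, 2057 and 823 in GOF, and here GOF replicate 2 fell among the Control values.

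**Figure D3:**
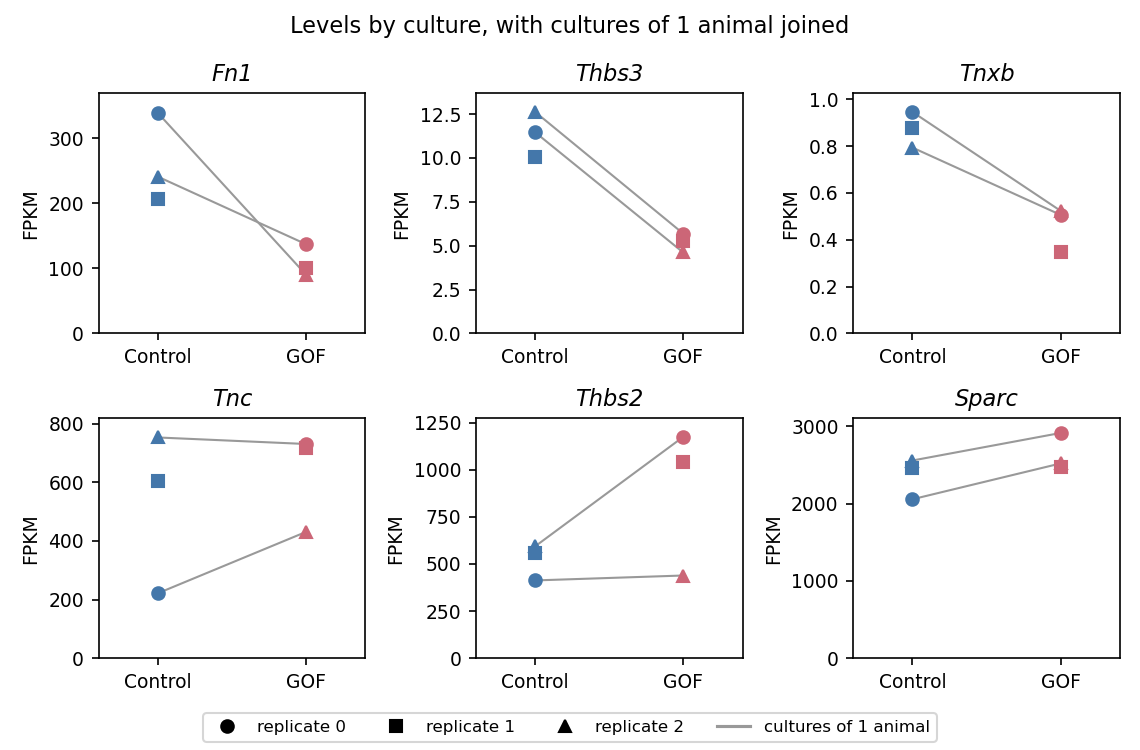
FPKM (y axes, from 0) of 6 genes in each Control (blue) and GOF (red) culture, 1 panel a gene, with grey lines joining the cultures that came from 1 animal. Both lines slope down for Fn1, Thbs3 and Tnxb, while for Tnc and Thbs2 1 of the animals is near level.

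Sparc, which binds collagen and loosens the attachment of cells to matrix, was at 2055, 2460 and 2556 FPKM in Control and at 2912, 2469 and 2518 in GOF. Control replicate 0 was the lowest and GOF replicate 0 the highest, and the other 4 libraries lay between 2460 and 2556. The Control mean was 2357 ± 266 FPKM and the GOF mean 2633 ± 243 (SD, n = 3 each), with a log2 fold change of 0.13 ± 0.19 SE (edgeR adjusted p = 0.666), and the alternatives ranged from 0.03 to 0.23. Sparc showed the smallest fitted difference of the 7.

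Postn encodes periostin, a protein of collagen-rich tissue under load that is induced in wounds. In GOF cultures it was at 1033, 1145 and 1081 FPKM (185018, 211524 and 181856 fragments), a mean of 1086 ± 56.3 (SD, n = 3). Set beside the tested genes, which leave out those with too many fragments, it would rank 60th by mean FPKM. In the 3 Control libraries it was marked as having too many fragments and listed at 0, so that no change can be given. The mark gives no Control level, and whether that level was above the GOF level was not tested. Sparc was estimated at 188866 to 310696 fragments a library, and up to 431115 fragments were estimated for a gene.

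Wider lists of matrix genes were described with the same fit, in which 6.69% of all genes tested were called higher and 5.64% lower. Of the 5 CCN genes tested, which encode cysteine-rich proteins that bind integrins and growth factors, 1 was called, lower in GOF, with a median log2 fold change of -0.59. This was Ccn3 (Nov), at 178, 251 and 163 FPKM in Control and 12.03, 11.5 and 13.4 in GOF, which fell by 4.01 ± 0.19 SE on the log2 scale (edgeR adjusted p = 5.845e-05), more than any of the 7 members tested. Below the 2-fold threshold, the YAP-responsive genes Ccn1 (Cyr61) and Ccn2 (Ctgf) had log2 fold changes of 0.84 ± 0.15 SE and 0.85 ± 0.24 SE (edgeR adjusted p = 0.00824 and 0.0455). Ccn4 (Wisp1) had -0.997 ± 0.29 SE (edgeR adjusted p = 0.0485), and Ccn5 (Wisp2) -0.59 ± 0.36 SE (edgeR adjusted p = 0.293). The values of these 4 genes were looked at beside Ccn3 for the family and not named by a rule.

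Of the 7 tested relatives of Sparc, 1 was higher and 2 were lower, with a median log2 fold change of -1.15. Fstl1, a secreted follistatin-like glycoprotein, was at 1009, 964.5 and 972 FPKM in Control and at 391, 444 and 529.6 in GOF, without overlap. It fell by 1.15 ± 0.17 SE on the log2 scale (edgeR adjusted p = 0.00386) and was the only one of these calls with more than 100 fragments in every library. Smoc1, a calcium-binding matrix protein, had 11, 25 and 20 fragments in Control and 4, 5 and 3 in GOF (log2 fold change -2.22 ± 0.44 SE, edgeR adjusted p = 0.0117), and its call was lost in 4 of 15 alternatives, among them the fits that left out Control replicate 1 or GOF replicate 0, whose adjusted p was 0.0567 and 0.056. Spock1, the proteoglycan testican, had 5, 6 and 4 fragments in Control and 13, 16 and 13 in GOF (log2 fold change 1.42 ± 0.38 SE, edgeR adjusted p = 0.0363), and its call was lost in 12 of 15 alternatives.

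Among 23 tested genes of other matricellular and adhesive glycoproteins, 3 were higher and 5 lower, and the median log2 fold change was -0.01. Ecm2, a matrix protein related to small leucine-rich proteoglycans, was at 2.25, 2.58 and 2.15 FPKM in Control and 0.164, 0.0941 and 0.201 in GOF, and fell by 3.95 ± 0.25 SE on the log2 scale (edgeR adjusted p = 1.812e-04). The elastic fibre glycoproteins Emilin2 and Emilin1 fell by 1.67 ± 0.20 SE and 1.27 ± 0.19 SE (edgeR adjusted p = 0.0016 and 0.00389). Npnt (nephronectin), a basement membrane ligand of the integrin of Itga8, rose from 0.530, 0.391 and 0.601 FPKM in Control to 4.94, 2.93 and 5.50 in GOF (log2 fold change 3.15 ± 0.27 SE, edgeR adjusted p = 4.523e-04). Across the 3 lists of matrix genes 4 were called higher and 8 lower of 35 tested, beside 6.69% and 5.64% over all genes tested.

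**Figure D4:**
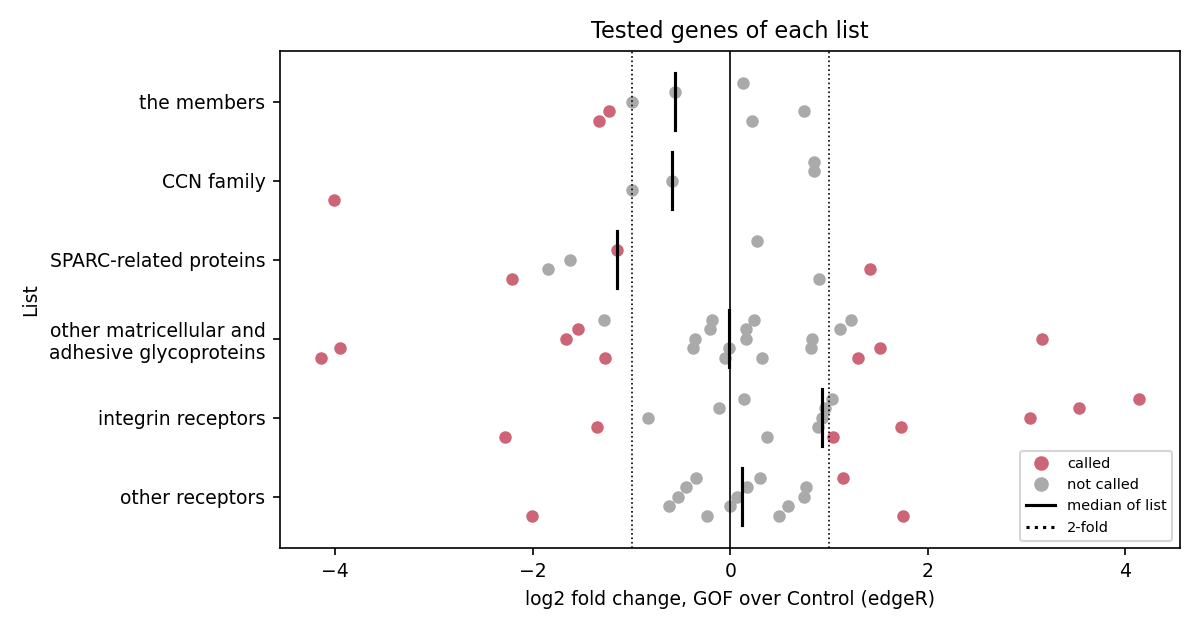
Log2 fold change of GOF over Control by edgeR (x axis) for each tested gene of the members and of 5 related lists (y axis), red where called, with a vertical bar at each list's median and dotted lines at 2-fold. Called genes lie on both sides of 0 in each list except the members and the CCN family, where they lie to the left.

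The receptors were counted too, beside 6.69% higher and 5.64% lower over all genes tested. Of 15 tested integrin genes, 5 were higher and 2 lower in GOF, with a median log2 fold change of 0.93. Itgb1, the β1 chain common to most fibronectin and tenascin receptors and the most abundant of the list, was at 475, 512 and 490 FPKM in Control and 853, 1078 and 937 in GOF, without overlap. Its log2 fold change of 0.96 ± 0.18 SE (edgeR adjusted p = 0.0106) was just under 2-fold, and it was called without GOF replicate 0 (1.04) and without GOF replicate 2 (1.03). Without GOF replicate 1 it was 0.80, and under the block by replicate number the edgeR adjusted p was 0.054. Itga4, a partner chain that binds fibronectin and VCAM1, rose from 1.18, 1.65 and 1.89 FPKM in Control to 21.8, 20.7 and 8.88 in GOF (log2 fold change 3.53 ± 0.40 SE, edgeR adjusted p = 0.00133). Itga6 and Itga3, laminin-binding chains, rose by 3.04 ± 0.35 SE and 1.73 ± 0.28 SE on the log2 scale (edgeR adjusted p = 0.00148 and 0.00508). The rise of Itga6 was larger in fragments than in FPKM, where it went from 8.83 to 12.8 in Control to 33.6 to 52.9 in GOF. Itga11, a collagen-binding chain of fibroblasts, was at 27.7, 65.8 and 68.2 FPKM in Control and 15.4, 6.07 and 12.9 in GOF, and fell by 2.28 ± 0.44 SE on the log2 scale (edgeR adjusted p = 0.0107).

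Of 16 tested other receptors, 2 were higher and 1 lower, with a median log2 fold change of 0.12. Over all genes tested the shares were 6.69% higher and 5.64% lower. Ptprb, a receptor phosphatase named for endothelium, rose from 0.542, 0.637 and 0.764 FPKM in Control to 2.57, 1.80 and 2.23 in GOF (log2 fold change 1.75 ± 0.18 SE, edgeR adjusted p = 9.45e-04). Of the 7 endothelial markers tested, Kdr and Esam were higher in GOF as well (log2 fold changes of 1.77 and 3.05, edgeR adjusted p = 0.011 and 0.0036) and Tek was lower (log2 fold change -2.27, edgeR adjusted p = 0.019), with a summed FPKM of the list of 5.18 to 5.38 in Control and 4.26 to 8.004 in GOF. Their part in the Ptprb value was not tested. Sdc2, a heparan sulphate proteoglycan that acts with integrins on fibronectin, rose by 1.15 ± 0.19 SE on the log2 scale (edgeR adjusted p = 0.00571), and its log2 fold change was 0.93 without GOF replicate 2. Cntn1, a neural adhesion molecule that binds tenascins, had 13, 14 and 21 fragments in Control and 3, 5 and 4 in GOF (log2 fold change -2.01 ± 0.41 SE, edgeR adjusted p = 0.0129). Its call was lost in 5 of 15 alternatives, among them the block by replicate number (adjusted p = 0.0636) and those without Control replicate 2 (0.0612) and without GOF replicate 0 (0.064). Anxa2, a surface receptor for tenascin-C and the most abundant of the list, was at 422.5, 337 and 360.3 FPKM in Control and 587, 583 and 533 in GOF (log2 fold change 0.58 ± 0.14 SE, edgeR adjusted p = 0.0243) and stayed under 2-fold. Its edgeR adjusted p rose to 0.12 under the block by replicate number, to 0.083 under the block by animal and to 0.117 without Control replicate 1.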

How the data were processed

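RNA-seq of 6 dermal fibroblast cultures (3 Control, 3 GOF) was taken from the all-gene table that the authors deposited. The authors mapped paired-end reads of stranded libraries with TopHat, on mm10, before they ran Cuffdiff. The estimated counts deposited by the authors are the fragments Cuffdiff assigned to each gene and library, without scaling, and 4.95% were not whole and were rounded. The FPKM values deposited by the authors are those fragments scaled by transcript length and between libraries. Whether counting used the strand is not given in the sources used here. Of the table, 2 further columns of per-library values and a second table of lncRNAs were not used. Identifiers matched GENCODE M21 symbols for 97.9% of the genes. Left out of the tests were 32 genes without an estimate in at least 1 library, 23 of them marked as having too many fragments (13 in all libraries, Thbs1 among them).

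Estimated counts were tested in R 4.3.3 with edgeR 4.0.16 (TMM, filterByExpr, quasi-likelihood test of GOF against Control, Benjamini-Hochberg adjustment over 15462 genes), and a gene was called at a fold change over 2 with an adjusted p below 0.05. The standard error is the log2 fold change over the square root of F. The script was tested on simulated data. Alternatives were DESeq2 1.42.0, library totals, upper-quartile scaling, no filter, an FPKM of at least 1 in 3 libraries, limma 3.58.1 on log2(FPKM + 1) and log2(FPKM + 0.1), a replicate block by number or by animal, limma-voom with a correlation between cultures of 1 animal, and leaving out 1 library at a time. Depth limits counts as low as those of Thbs4 and Tnn, and intervals cover the spread between 3 cultures a group, of which some share an animal.

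The members and lists were chosen with earlier results of these data known. The text names all 10 members, every called gene of the CCN and SPARC-related lists, up to 4 called genes with the smallest adjusted p of the other lists, the most abundant gene of each receptor list, and Axin2. Marker genes, overlapping genes and the other CCN genes were named beside them.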

Additional observations from a re-analysis of the deposited data

How the results depend on the processing

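The members were called the same way in most alternatives: Sparc kept its side of the thresholds in 16 of 16, and Fn1, Thbs2 and Thbs3 in 15 of 16. Leaving out 1 library at a time, the number of members called lower ranged from 1 to 3 and called higher from 0 to 1, the matrix lists called higher from 1 to 4 and the receptors called lower from 1 to 3. Without GOF replicate 2, 1 member, Thbs2, was called higher. With limma on log2(FPKM + 1), 1 member was called lower, 2 genes of the matrix lists higher (4 in the fit as reported), 4 receptors higher (7 as reported) and 1 receptor lower (3 as reported), and over all genes 877 were called against 1906. Under a minimum of 1 FPKM in 3 libraries, 2 genes of the matrix lists were higher and 1 receptor was lower, since genes of low level were then not tested. The sign turned for Tnc, whose log2 fold change ranged from -0.16 to 0.53 with a library left out, and for Tnn, from -1.32 to 0.45. The cause of these differences was not tested.

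Cultures with the same replicate number did not deviate together (correlations of -0.41, 0.05 and -0.44), and by the labels no such pair shared an animal. Cultures of 1 animal did deviate together (0.46 and 0.41). The deviations were taken from the mean of each group, so these correlations constrain each other and are not separate results. A replicate block by number left 1 receptor called lower in place of 3, and it changed the call of 0 of 7 members, as did a block by animal, which has 1 residual degree of freedom, and a correlation between cultures of 1 animal (estimated at 0.476).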
